A study of Mus musculus with 6 samples.

Results

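The mouse cochlea 24 h after noise and a saline injection was compared with the cochlea 12 h after the same noise and injection, which takes 2 of the 6 arrays of the series, chosen by their titles. Both groups were female C57BL/6 mice aged 6 weeks that were exposed to intense noise for 2 h and injected intraperitoneally with saline directly afterwards, and neither received dexamethasone. The remaining 4 arrays were a baseline with neither noise nor injection, a noise-only group for which the labels give no time after noise, and 2 groups given dexamethasone, a synthetic glucocorticoid, at 10 mg/kg after the noise and taken at 12 h or 24 h. Each group had 6 mice per the design text and 1 array, and the sources used here give neither whether RNA was pooled nor the hour of day of the noise and the dissections. The tissue was the dissected cochlea, so the RNA is that of a mixture of cells, and fewer cells of a type and less RNA per cell cannot be told apart.

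A level is the log2 signal of a gene minus the 75th percentile of its array, so that 0 is that percentile, and a difference is the level at 24 h minus the level at 12 h. A gene was called measured when its probe was well above background on both saline arrays, which held for 22953 of 37318 genes. With 1 array per group no difference had a replicate check, no p-value is given, and the interval after a fold covers the spot error of the scanner software only. The multiplicative part of that error was preset at 10% on both arrays, so for bright genes the interval is not a precision measured on the gene's own spots. Repeat spots of a probe had a median standard deviation of 0.037 in log2 on each saline array. The median half-width of the interval was 0.40 on the log2 scale, and 37.2% of measured genes differed by more than the interval given for them. Both 12 h arrays lay on 1 slide and the other 4 arrays on another slide, so for these 2 arrays slide and time cannot be told apart. The saline 12 h array had 70.3% of its probes well above background and the saline 24 h array 63.0%. Scaling on the E1A spike-in probes, RNA added at labelling, in place of the 75th percentile added 0.55 to every difference and moved the median over all measured genes from -0.02 to 0.52. Differences are therefore given relative to the bulk of genes.

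Among the measured genes, 599 were at least 2-fold higher at 24 h (2.61%) and 962 were at least 2-fold lower (4.19%), which makes 6.8% in either direction. Each count of list members between the saline arrays below is to be read against these shares. A difference of 4-fold or more was reached by 71 higher and 150 lower genes. The central 80% of genes lay between -0.68 and 0.59. Of the genes at least 2-fold apart, 302 had further measured probes, and for 74.2% of them every further probe had the same direction. Among genes of at least median signal, those higher at 24 h were led by Per2 and Dbp of the circadian clock. The genes lower at 24 h were led by secreted products of glands, the gastric-type lipase gene Lipf at 876-fold, the mucin gene Muc5b at 295-fold and the scavenger-receptor gene Dmbt1 at 461-fold.

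Cells of most tissues, the cochlea included, keep daily time with a feedback loop of transcription factors. ARNTL (BMAL1), paired with CLOCK or NPAS2, binds E-box sequences and turns on the Per and Cry genes, whose proteins then inhibit the pair. The same factors drive Nr1d1 and Nr1d2, nuclear receptors that repress Arntl, and output factors such as DBP and TEF, which bind D-box sequences. Transcripts of Per2 and Dbp therefore usually run in opposite phase to those of Arntl, and the clock is known to modulate how sensitive the cochlea is to noise.

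The clock genes below are shown because their upstream windows hold the sequences that the 2 kinds of factor bind, and their transcripts were at least 2-fold higher at 24 h. The sequences are RefSeq promoter windows on GRCm38.p6, written 5′ to 3′ on the gene's strand and cut short of the transcription start, with each match in capitals. The matches are to the E-box CACGTG in the first 4 and to the D-box TTATGTAA in Per3.
Ciart, chr3:95882252-95882359, minus strand: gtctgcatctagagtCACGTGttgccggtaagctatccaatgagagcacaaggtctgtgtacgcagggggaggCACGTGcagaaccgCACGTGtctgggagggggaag
Tef, chr15:81802519-81802578, plus strand: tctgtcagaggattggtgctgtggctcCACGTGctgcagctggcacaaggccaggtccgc
Per1, chr11:69098756-69098815, plus strand: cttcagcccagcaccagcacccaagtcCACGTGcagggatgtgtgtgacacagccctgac
Bhlhe41, chr6:145865541-145865600, minus strand: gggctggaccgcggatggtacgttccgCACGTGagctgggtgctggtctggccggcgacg
Per3, chr4:151044801-151044885, minus strand: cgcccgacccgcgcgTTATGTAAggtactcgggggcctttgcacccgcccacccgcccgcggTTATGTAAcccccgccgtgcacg

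Ciart held 3 E-boxes, beginning 116, 58 and 44 bases upstream of its start, and Per3 held 2 D-boxes, beginning 205 and 158 bases upstream. The promoter table matched 18 of the 22 clock genes, with Per2 among those it does not list. Of these 18 genes, 5 held CACGTG within 250 bases upstream, namely Ciart, Tef, Per1, Bhlhe41 and Cry1, against 6.86% of the 27025 genes in the table. CACGTG reads the same on both strands. A D-box, searched as TTATGTAA, its reverse complement TTACATAA or TTACGTAA, was found in Per3 alone of the 18 and in 1.1% of all genes. A match describes these letters in this window and shows neither binding nor a cause of a difference.

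Of the 22 clock genes, 21 were measured on both saline arrays, with a median difference of 1.13 against -0.02 for all measured genes. At least 2-fold higher at 24 h were 12 of them, beside 2.61% of all measured genes, and 2 were at least 2-fold lower, beside 4.19%. The repressors of the loop led the list, with 8 of 10 at least 2-fold higher and a median difference of 1.16. The output factors had a median of 1.07, with 3 of 6 at least 2-fold higher and 1 lower. Of the 6 activators and ROR receptors 5 were measured, with 1 at least 2-fold higher and 1 lower.

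Per2, whose protein inhibits ARNTL and CLOCK, had a level of -0.84 at 12 h and 1.84 at 24 h. It was thus 6.37-fold higher at 24 h (4.82 to 8.41), and its further probe differed by 0.89 in the same direction. On the other arrays Per2 stood at -0.48 in the baseline, 1.73 after noise only, -0.15 at 12 h after dexamethasone and -0.50 at 24 h after dexamethasone. The noise-only and saline 24 h arrays were thus the high ones, and the other 4 lay more than 1 log2 unit below them. Per the file headers, the probes lie on mm9 at chr1:93312595-93312654 for Per2, chr3:95682433-95682492 for Ciart, chr7:52965265-52965324 for Dbp and chr7:120456978-120457037 for Arntl, and their place in exons or UTRs was not analysed here.

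Ciart, a repressor of the CLOCK and ARNTL pair, went from a level of -3.78 at 12 h to -1.09 at 24 h, a 6.45-fold difference (4.65 to 8.94). It stood at -3.21 in the baseline, -1.12 after noise only, -4.12 at 12 h and -3.60 at 24 h after dexamethasone, the same split of the 6 arrays as for Per2. Per3 was 3.36-fold higher at 24 h (2.55 to 4.44), from -0.30 to 1.45, and again the noise-only array, at 1.08, was the one nearest to saline 24 h. Per1 went from 2.82 to 3.96, a 2.2-fold difference, but its further probe differed by -0.22, so the 2 probes of Per1 disagreed. Cry2, the partner of the PER proteins, was 2.14-fold higher (1.62 to 2.83). Cry1, which peaks later than the Per genes in most tissues, was at -2.61 and -3.04, a difference of -0.43 that lay within its spot error of 0.45 and became 0.12 with spike-in scaling.

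Nr1d1 and Nr1d2, the REV-ERB receptors that repress Arntl, were 2.2-fold and 2.61-fold higher at 24 h. Nr1d2 had levels of 0.96 at 12 h and 2.34 at 24 h, with 2.43 after noise only, 1.53 in the baseline, and 0.59 and 1.2 at 12 h and 24 h after dexamethasone. Bhlhe41 (DEC2), which competes for E-boxes, was 2.26-fold higher, and its relative Bhlhe40 (DEC1) 1.91-fold. Among the receptors that activate Arntl, Rora was 1.68-fold higher by its brightest probe, with further probes at -0.11 and 0.76, and Rorb was 3.43-fold higher (2.06 to 5.68) at a low level, -5.04 at 12 h and -3.27 at 24 h.

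Arntl, the positive arm, ran the opposite way. Its level was 0.62 at 12 h and -1.59 at 24 h, a 4.62-fold lower value at 24 h (3.48 to 6.14), and both further probes lay between -2.63 and -2.30. It was at 0.01 in the baseline, -0.84 after noise only, 0.99 at 12 h and 0.41 at 24 h after dexamethasone. Saline 24 h was thus the lowest of the 6 arrays and noise only the next lowest, the reverse of the order for Per2. Npas2, which can replace CLOCK, was well above background at 12 h and not at 24 h, with a difference within its spot error. Clock itself had levels of 1.53 and 1.33, a difference within its spot error.

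The output factors followed the repressors. Dbp, a D-box activator, had a level of 3.20 at 12 h and 5.79 at 24 h, 6.02-fold higher (4.56 to 7.94), with 3.63 in the baseline, 5.88 after noise only, 1.71 at 12 h and 2.57 at 24 h after dexamethasone. Tef and Hlf, which bind the same D-box, were 3.58-fold (2.71 to 4.72) and 2.33-fold (1.77 to 3.08) higher at 24 h. Nfil3, which represses at D-boxes, was 2.54-fold lower (1.93 to 3.36), from 1.48 to 0.14. The activators of this box were thus higher and its repressor lower on the 24 h array. Wee1, a cell-cycle kinase gene, was 1.9-fold higher and the deubiquitinase gene Usp2 1.51-fold.

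**Figure D1:**
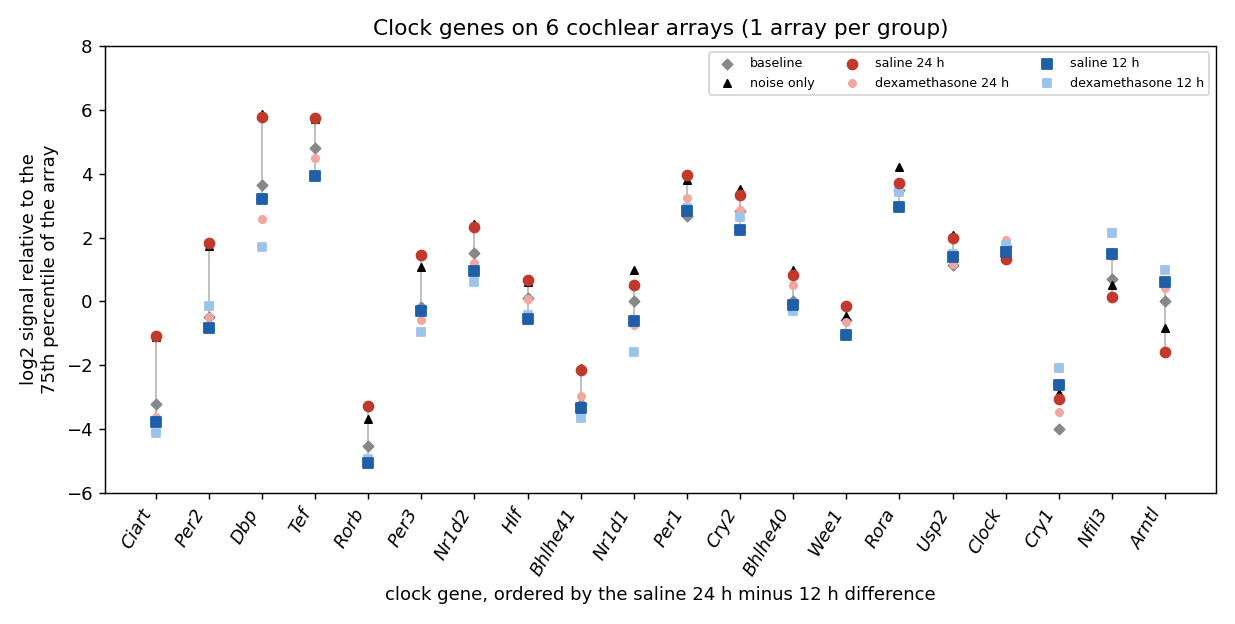
Level of the measured clock genes named in the text (vertical axis, log2 signal relative to the 75th percentile of the array) on the 6 arrays, 1 point per array, with the genes ordered along the horizontal axis by the difference between the saline arrays and a grey line joining those 2. The saline 24 h points lie close to the noise-only points for Per2 (1.84 and 1.73), Dbp (5.79 and 5.88) and Ciart (-1.09 and -1.12), and below the saline 12 h points for Nfil3 and Arntl.

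Across the clock list the noise-only and saline 24 h arrays were the 2 highest of the 6 for 15 of 21 genes, a pattern found in 7.76% of all measured genes. They were the 2 lowest for Arntl and Nfil3. With dexamethasone, the difference between 24 h and 12 h had a median of 0.30 over 21 measured clock genes, with 0 at least 2-fold higher, beside 3.23% of all genes, and 1 at least 2-fold lower, Cry1 at -1.38. Per2 differed by -0.36 between the dexamethasone arrays, Dbp by 0.86, Ciart by 0.52 and Arntl by -0.58, each closer to 0 than between the saline arrays. Whether the difference between saline and dexamethasone exceeds the spread between mice was not tested. For 10 of the 21 clock genes both 12 h arrays lay below all 4 arrays of the other slide, which was so for 22.1% of measured genes, and for 3 genes both lay above, beside 21.3%. The summed linear level of the 22 clock genes, in units of the 75th percentile of each array, was 61.1 at 12 h and 175 at 24 h with saline.

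Genes induced by interferons, the antiviral cytokines, were mostly higher at 24 h too, though with a smaller list median than the strial (0.64) and hair cell genes (0.63) below. Interferon signalling turns such genes on through the interferon-stimulated response element, and 2 members with 2 copies each are shown as examples. The windows are again from GRCm38.p6, and capitals mark TTTCNNTTTC, the element on the opposite strand.
Ifit1, chr19:34640769-34640829, plus strand: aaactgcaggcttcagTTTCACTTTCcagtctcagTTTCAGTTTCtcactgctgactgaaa
Ifit3, chr19:34583357-34583432, plus strand: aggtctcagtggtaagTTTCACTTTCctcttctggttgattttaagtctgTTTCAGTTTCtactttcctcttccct

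The element, searched as GAAANNGAAA or TTTCNNTTTC, lay within 250 bases upstream of 14 of the 26 interferon-response genes in the promoter table and of 3.46% of all genes. Of 34 list members 33 were measured, with a median difference of 0.37. At least 2-fold higher at 24 h were 5 of them, beside 2.61% of all measured genes, and 0 were at least 2-fold lower, beside 4.19%. The 5 were effectors. Ifit1, which binds viral RNA, had levels of 0.72 at 12 h and 2.24 at 24 h and was 2.85-fold higher (2.16 to 3.76). It was at -0.57 in the baseline, 2.14 after noise only, 0.22 at 12 h and 1.06 at 24 h after dexamethasone, so the saline 24 h array lay beside the noise-only array here too.

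Ifit3, which works in a complex with IFIT1, was 2.66-fold higher, and Ifi44 3.03-fold, from -1.44 to 0.16, with a difference of 0.66 by its further probe. Oasl2, of the family that senses double-stranded RNA, was 2.63-fold higher and the antiviral GTPase gene Mx1 2.12-fold. Ddx58, which encodes the RNA sensor RIG-I, went from 1.13 to 2.08 by its brightest probe, a 1.93-fold difference, but its 3 further probes differed by 0.09 to 0.17. The 15 sensors and transcription factors of the list had a median of 0.40, with 14 above 0. The noise-only and saline 24 h arrays were the 2 highest of the 6 for 23 of the 33 genes, beside 7.76% of all. For 0 of the 33 did both 12 h arrays lie above, or below, all 4 arrays of the other slide, beside 21.3% and 22.1% of all measured genes. Between the dexamethasone arrays the median of this list was 0.43, with 4 genes at least 2-fold higher at 24 h, beside 3.23% of all genes.

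Chemokines and cytokines went in both directions. Of 34 genes 25 were measured, with a median of -0.23 that became 0.32 with spike-in scaling. At least 2-fold higher were 2, beside 2.61% of all genes, and 3 were lower, beside 4.19%. The monocyte attractant Ccl2 had levels of 2.22 at 12 h and 1.12 at 24 h and was 2.15-fold lower at 24 h (1.63 to 2.83), and Ccl7, which shares its receptor, was 1.99-fold lower. Ccl2 was at -1.35 in the baseline, 1.81 after noise only, 2.33 at 12 h and 2.69 at 24 h after dexamethasone, so both saline arrays and the other noise-exposed arrays lay above the baseline. Ccl2 differed by 0.36 between the dexamethasone arrays. Cxcl5, a neutrophil attractant, was 4.14-fold lower at 24 h (3.01 to 5.7) and the pro-inflammatory Il1b 2.8-fold lower (2.1 to 3.75).

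Cxcl10, the interferon-induced attractant of T cells, went the other way, from 2.13 to 3.24, 2.16-fold higher at 24 h (1.64 to 2.85). It stood at -0.38 in the baseline and 3.83 after noise only, and at 1.92 and 2.05 at 12 h and 24 h after dexamethasone. Tnfsf11 (RANKL), the osteoclast differentiation factor, was 2.68-fold higher at a low level, from -3.68 to -2.26. Il6 was well above background at 12 h and not at 24 h, at least 1.74-fold higher at 12 h, a bound that leaves out spot error. Taken from its own dim signal at 24 h, the Il6 difference was -1.68, with a spot-error interval of 1.39-fold to 7.37-fold higher at 12 h. Not well above background on either saline array were 7 members, among them Cxcl2, Il1a and Csf3.

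Immediate early genes, the first transcripts made after a stimulus, had a median difference of -0.22 over 27 measured genes, or 0.32 with spike-in scaling. At least 2-fold higher were 0, beside 2.61% of all genes, and 1 was lower, beside 4.19%. That gene was Egr4, at -1.80 and -3.48, 3.21-fold lower at 24 h (2.29 to 4.5). Egr4 was at -3.71 in the baseline and -0.83 after noise only, and at -1.40 and -4.29 at 12 h and 24 h after dexamethasone. The 24 h arrays of both treatments thus lay near the baseline for Egr4 and the 12 h arrays above it. Fos was at 1.12 and 0.48 (difference -0.64), Egr1 at 1.45 and 1.88 (0.42), Junb at 3.11 and 2.76 (-0.35, against 0.37 by its further probe), and Atf3, a stress-induced factor, at 0.19 and 0.83 (0.63). Fosl1 differed by -0.95 and Ier5 by -0.77.

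The NF-kB feedback and adhesion genes had a median of -0.20, or 0.35 with spike-in scaling. Of 18 genes 0 were at least 2-fold higher, beside 2.61% of all genes, and 1 was lower, beside 4.19%. It was Tnfrsf12a, the receptor of the injury-associated ligand TWEAK, which went from 2.90 to 1.79, 2.16-fold lower at 24 h, but stood at 2.96 and 3.28 at 12 h and 24 h after dexamethasone. Socs3, which restrains signalling by the interleukin-6 receptor, went from 2.12 to 1.33, and was at 2.12 and 2.15 with dexamethasone. For Ccl2, Ccl7, Tnfrsf12a and Socs3 the saline 24 h array was thus lower than the saline 12 h array, while the 2 dexamethasone arrays lay within 0.43 of each other.

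Lists of the cochlea's own cells had medians above 0, between 0.31 and 0.64. Their members at least 2-fold apart ranged from 0 of 15 myelin genes to 5 higher and 1 lower of 18 hair cell genes. The share over all measured genes was 6.8%. The stria vascularis pumps potassium into the endolymph, the hair cells turn sound into a transmitter signal, and supporting cells make the tectorial membrane and recycle potassium through gap junctions. Defining markers were present on both arrays, with the cochlin gene Coch at 5.65 and 6.03, Otos at 7.72 and 7.58, and Ceacam16 at 5.79 and 6.31. The hair cell genes Slc26a5 and Atoh1 were not well above background on either saline array.

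Of 21 strial genes all were measured, with a median of 0.64, 20 above 0, 2 at least 2-fold higher, beside 2.61% of all genes, and 0 lower. Kcnj10, the potassium channel of strial intermediate cells that sets the endocochlear potential, had levels of 2.5 at 12 h and 3.83 at 24 h, 2.52-fold higher (1.91 to 3.32), with 4.11 in the baseline, 3.67 after noise only, and 2.58 and 3.88 at 12 h and 24 h after dexamethasone. Both 12 h arrays were low and the 4 arrays of the other slide high for Kcnj10. Esrrb, a nuclear receptor of strial marginal cells, was 2.11-fold higher (1.6 to 2.78), the tight-junction gene Cldn11 1.81-fold and the potassium channel gene Kcnq1 1.85-fold by its brightest probe, with further probes at -0.17 and 0.98. Trpm1, a melanocyte channel gene outside the list, was 3.58-fold higher by its brightest probe, with further probes between 0.14 and 1.47, and its difference was 2.03 with dexamethasone.

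Among 18 measured hair cell genes the median was 0.63, with 5 at least 2-fold higher, beside 2.61% of all genes, and 1 lower, beside 4.19%. Pou4f3, a transcription factor that hair cells need to survive, was 2.7-fold higher (1.85 to 3.93), from -4.20 to -2.77. The tip-link gene Pcdh15 was 2.49-fold higher, the transduction channel gene Tmc1 2.13-fold and the bundle gene Espn 2-fold. Loxhd1 was 2.1-fold higher by its brightest probe, but its 2 further probes lay at -0.87 and -0.27 and the mean over its probes was -0.02. Chrna9, of the receptor through which efferent fibres act on outer hair cells, was 3.17-fold lower by its brightest probe, from 0.03 to -1.63, while its further probe differed by 0.07.

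Supporting cell and tectorial membrane genes had a median of 0.46. At least 2-fold higher were 3 of 13, beside 2.61% of all genes, and 0 were lower, beside 4.19%. The tectorial protein gene Otog was 2.4-fold higher (1.82 to 3.16), its paralogue Otogl 2.08-fold, and Gjb2, which encodes the gap-junction protein connexin 26, 2.11-fold (1.6 to 2.78). Gjb2 was at 4.45 at 12 h and 5.52 at 24 h with saline, and at 4.52 and 4.63 with dexamethasone. In the spiral ligament list, whose median was 0.38, the fibrocyte factor Tbx18 was 2.12-fold higher and the potassium uptake gene Slc12a2 1.78-fold.

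Spiral ganglion genes had a median of 0.31. At least 2-fold higher were 0 of 20, beside 2.61% of all genes, and 1 was lower, beside 4.19%. Gap43, a growth cone gene, had levels of 1.56 at 12 h and 0.40 at 24 h, 2.24-fold lower (1.7 to 2.95), and 2.10 and 2.34 with dexamethasone, so that saline 24 h was the lowest of the 6 arrays. The neurofilament genes Nefm and Nefh were 1.88-fold and 1.85-fold higher. Schwann cell and myelin genes had a median of 0.50, with 15 of 15 above 0 and 0 at least 2-fold apart, and a median of 0.80 with dexamethasone. Pain-fibre genes of sensory ganglia, which the cochlea itself is not rich in, had a median of 0.67. At least 2-fold higher were 4 of 11, beside 2.61% of all genes, such as Mrgprd at 2.56-fold and Prdm12 at 2.21-fold.

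The summed levels of the gland, stratified epithelium, muscle, cerebellar and pituitary lists, given below, were lower at 24 h, while those of the sensory ganglion (10.5 and 20.6), choroid plexus (33.3 and 40.6), adipocyte (66.5 and 80.1) and catecholamine neuron lists (13.1 and 16.3) were higher. Their part in the cochlear values was not tested. For 10 of 21 strial genes, 11 of 20 spiral ganglion genes and 9 of 15 myelin genes both 12 h arrays lay below all 4 arrays of the other slide, beside 22.1% of measured genes.

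**Figure D2:**
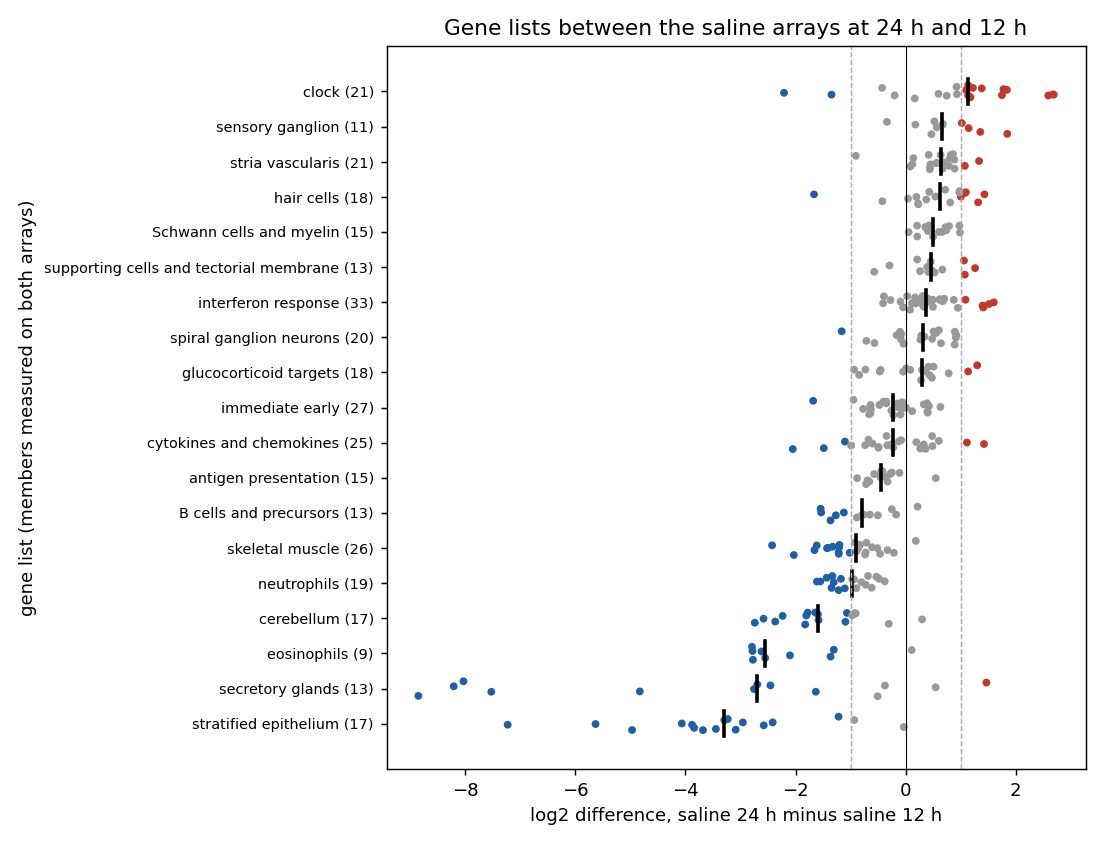
Log2 difference between the saline arrays at 24 h and 12 h (horizontal axis) for the measured members of 19 gene lists (vertical axis, number of measured members in brackets), with 1 point per gene, a black bar at the median of each list and dashed lines at 2-fold. Red points are at least 2-fold higher and blue points at least 2-fold lower at 24 h. The clock has the highest median, 1.13, and stratified epithelium, at the bottom of the plot, has -3.29.

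Genes of granulocytes and B cells were next to differ, with lower levels at 24 h, while T and NK cell genes and antigen presentation genes had 0 members at least 2-fold apart. The temporal bone around the cochlea holds marrow, where granulocytes and B cells are made. Eosinophil genes had the largest difference among the blood lists, with a median of -2.55 over 9 measured genes (-2.0 with spike-in scaling), 8 of them at least 2-fold lower, beside 4.19% of all genes, and 0 higher. Prg2, the major basic protein of eosinophil granules, had levels of 5.95 at 12 h and 3.18 at 24 h, 6.84-fold lower (5.18 to 9.02). It was at 3.44 in the baseline, 1.49 after noise only, and 3.22 and 1.70 at 12 h and 24 h after dexamethasone.

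The saline 12 h array thus stood alone for Prg2, and it was the highest of the 6 arrays for 8 of the 9 eosinophil genes, a position it held for 30.4% of all measured genes. Other lists shared this position, with 24 of 26 skeletal muscle, 14 of 15 antigen presentation, 19 of 25 cell-cycle and 12 of 16 erythroid genes. For 19 of the 26 muscle genes, however, the dexamethasone 12 h array also lay above the 4 arrays of the other slide. The clock list had 0 of 21. The eosinophil peroxidase gene Epx was 4.29-fold lower at 24 h, and the ribonuclease genes Ear1, Ear2 and Ear6 were between 5.86-fold and 6.92-fold lower, though such near-identical genes may share probe signal. The summed level of the 9 genes was 172 at 12 h and 27.7 at 24 h with saline, against 28.3 and 12.3 with dexamethasone and 35.1 in the baseline. For 0 of the 9 genes did both 12 h arrays lie above all 4 others.

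Neutrophil genes had a median of -0.97, or -0.43 with spike-in scaling, with 19 of 19 below 0, 9 at least 2-fold lower, beside 4.19% of all genes, and 0 higher, beside 2.61%. The granule gene Ltf was 2.93-fold lower, Retnlg 3.06-fold, the cathelicidin gene Camp 2.54-fold, S100a8 2.47-fold and the chemokine receptor gene Cxcr2 2.52-fold. Cxcr2 had levels of -0.50 at 12 h and -1.83 at 24 h, with -0.49 in the baseline, -2.37 after noise only, and -0.94 and -1.75 with dexamethasone. The baseline was thus as high as saline 12 h for Cxcr2. Ltf is also made by glands, whose genes differed in the same direction, and whether they contribute to its difference was not tested.

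B cell and precursor genes had a median of -0.79 (-0.25 with spike-in scaling). Of 13 genes 0 were at least 2-fold higher, beside 2.61% of all genes, and 5 were lower, beside 4.19%. They were Vpreb1 and Igll1 of the surrogate light chain, Vpreb2, the antigen-receptor partner Cd79a and Dntt, the enzyme that adds bases at V(D)J joints. Vpreb1 was at 1.88 and 0.35 with saline, 2.9-fold lower at 24 h, but at -0.91 and 0.57 with dexamethasone. Antigen presentation genes had a median of -0.44 (0.11 with spike-in scaling) with 0 of 15 at least 2-fold apart, H2-Ab1 being at 4.94 and 4.06. Macrophage genes had a median of -0.23 (0.31 with spike-in scaling), with 2 of 17 at least 2-fold lower, beside 4.19% of all genes, Lyz2 at 2.97-fold and Tyrobp at 2.48-fold. Above 0 were 6 of the 17, such as Trem2 at 0.66. Lyz1 of the gland list differed by -2.75, and whether it adds to the Lyz2 signal was not tested. T and NK cell genes (median -0.41, or 0.14 with spike-in scaling), erythroid genes (-0.13, or 0.41) and cell-cycle genes (-0.21, or 0.33) had 0 members at least 2-fold apart.

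The furthest values belonged to genes best known from other tissues, whose source in these samples was not tested. In the secretory gland list, of mucin and saliva genes, 13 of 20 were measured, with a median of -2.69. At least 2-fold lower were 9 of them, beside 4.19% of all genes, and 1 was higher, beside 2.61%. Bpifb1, a secreted protein of airway and salivary epithelium, was at 8.41 at 12 h and 0.38 at 24 h, 261-fold lower (198 to 345), and Tff2, a peptide that protects mucus, was 184-fold lower. Bpifb1 was at 4.27 in the baseline, 5.10 after noise only, and 8.63 and 3.04 with dexamethasone. Both 12 h arrays were the high ones, and saline 24 h was the lowest. For 10 of the 13 measured gland genes both 12 h arrays lay above all 4 others, beside 21.3% of measured genes, and for 1 both lay below, beside 22.1%. The summed level of the 20 genes was 1021 at 12 h and 320 at 24 h with saline, 1602 and 312 with dexamethasone, and 410 in the baseline. Well above background at 12 h and not at 24 h were Gp2, at least 198-fold higher at 12 h, Dcpp2, at least 194-fold, and Krt76, at least 173-fold.

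Stratified epithelium, the lining of skin and mouth, had a median of -3.29 over 17 measured genes. At least 2-fold lower were 15 of them, beside 4.19% of all genes, and 0 were higher, beside 2.61%. The keratin genes Krt6b and Krt16, of wounded or rubbed epithelium, were 150-fold and 49.6-fold lower at 24 h, and Krt14 of the basal layer 14.3-fold (10.9 to 18.9). Krt14 was at 4.28 at 12 h and 0.44 at 24 h, with 2.21 in the baseline, -1.31 after noise only, and 4.06 and -0.42 with dexamethasone. For 17 of 17 of these genes both 12 h arrays lay above all 4 others, beside 21.3% of measured genes. Their summed level, over 25 genes on the array, was 185 at 12 h and 17.5 at 24 h.

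Skeletal muscle genes had a median of -0.91 (-0.36 with spike-in scaling). At least 2-fold lower were 12 of 26, beside 4.19% of all genes, and 0 were higher, beside 2.61%. The slow and shared fibre genes had a median of -1.21 and the fast fibre genes -0.78. Tnnc1 and Tnni1, troponins of slow fibres, were 5.37-fold and 4.09-fold lower, Myl2 3.15-fold, the creatine kinase gene Ckm 3.06-fold and the myoglobin gene Mb 2.65-fold. The summed level of the muscle genes was 1539 at 12 h and 814 at 24 h. For 19 of the 26 genes both 12 h arrays lay above all 4 others, beside 21.3% of measured genes. Between the dexamethasone arrays the muscle median was -1.02, with 14 of 25 at least 2-fold lower at 24 h, beside 3.82% of all genes. Cox7a1, the muscle form of a respiratory-chain subunit, was the member of the oxidative phosphorylation list that was at least 2-fold lower, at 2.25-fold, while 0 of 20 were higher and the median was -0.29, or 0.26 with spike-in scaling and also above 0 after normexp.

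Cerebellar genes had a median of -1.59. At least 2-fold lower were 12 of 17, beside 4.19% of all genes, and 0 were higher, beside 2.61%. Pcp2, a Purkinje cell gene, was at 5.03 at 12 h and 2.29 at 24 h, 6.68-fold lower (5.06 to 8.81), with 0.27 in the baseline, 5.23 after noise only, and 4.91 and 0.73 with dexamethasone. The noise-only array was thus as high as both 12 h arrays for Pcp2, although it lies on the other slide, and 1 of the 17 genes had both 12 h arrays above all 4 others. The summed level of the 18 cerebellar genes was 128 at 12 h and 53.2 at 24 h. Of the pituitary list 4 of 8 genes were measured, with a median of -4.12, the lowest of the 41 lists, and a summed level of 47.4 at 12 h and 1.65 at 24 h. Prl (prolactin) was 54.6-fold, Gh (growth hormone) 27.9-fold and Pomc 10.9-fold lower at 24 h with saline, but all 3 were higher at 24 h with dexamethasone.

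**Figure D3:**
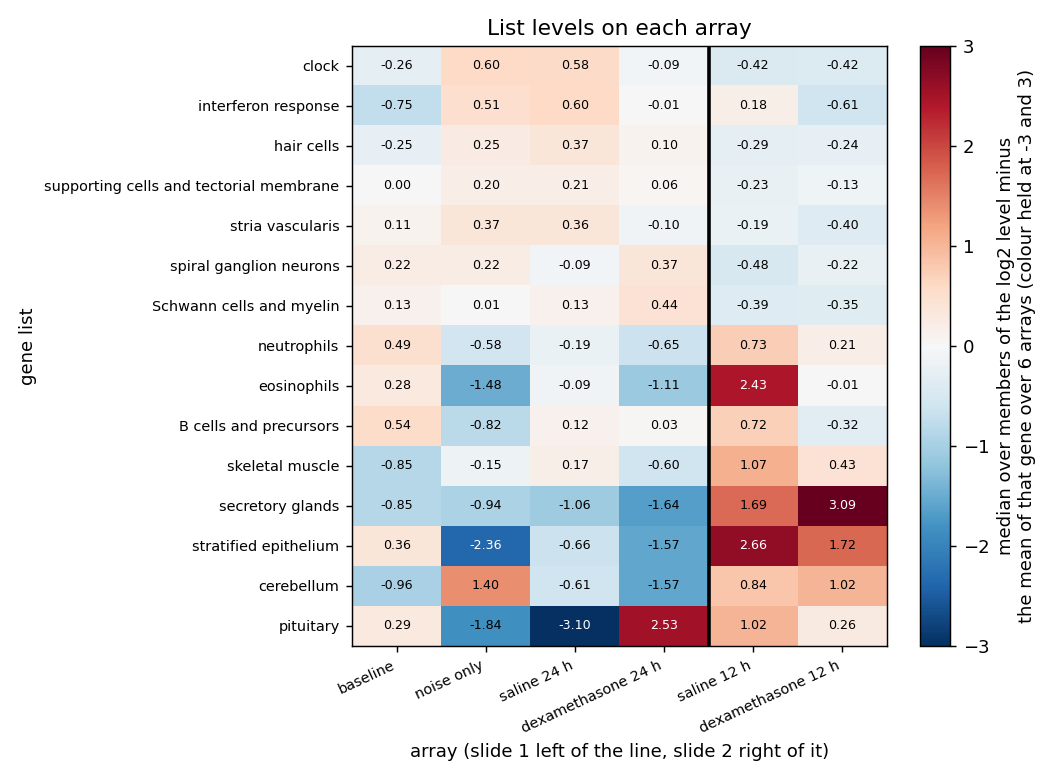
Level of 15 gene lists (vertical axis) on the 6 arrays (horizontal axis, 4 arrays of slide 1 and 2 of slide 2), as the median over measured members of the log2 level minus the mean of that gene over the 6 arrays. The clock list stands at 0.58 on saline 24 h and 0.60 on noise only, the eosinophil list at 2.43 on saline 12 h, and the stratified epithelium list is above 0 on both 12 h arrays and on the baseline.

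The next lists had medians between -0.44 and 0.29. Among glucocorticoid targets, of interest because stress raises corticosterone, the median was 0.29. At least 2-fold higher were 2 of 18, beside 2.61% of all genes, namely Zbtb16 at 2.46-fold and the clock gene Per1. At least 2-fold lower were 0, beside 4.19%. Zbtb16, a zinc-finger factor, was at 0.80 and 2.10 with saline, at 0.72 and 2.00 with dexamethasone, 1.92 in the baseline and 0.58 after noise only. The saline and dexamethasone arrays lay close together at each time for Zbtb16. Tsc22d3 (GILZ), a mediator of glucocorticoid action, was 1.72-fold higher (1.3 to 2.27). Other targets lay lower at 24 h, with differences of -0.94 for Lcn2, -0.85 for Cebpd and -0.73 for Tat, and beyond their spot error 7 of the 18 were higher and 5 lower.

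Acute-phase genes had a median of -0.44, which became 0.11 with spike-in scaling and 0.06 among brighter genes. Of 14 genes 0 were at least 2-fold higher, beside 2.61% of all genes, and 4 were lower, beside 4.19%. They were the acid glycoprotein genes Orm1 (2.9-fold) and Orm2 (2.62-fold), the haptoglobin gene Hp (2.62-fold) and the serum amyloid gene Saa2 (2.16-fold). In the antioxidant list (median 0.22) the cystine transporter gene Slc7a11 was 2.91-fold higher (2.19 to 3.86), from -2.28 to -0.74, with further probes at 0.34 and 0.95, and Cat, for catalase, 1.96-fold. In the apoptosis list (median -0.16, or 0.39 with spike-in scaling and of the other sign among brighter genes) the pore-forming Bax was 2.42-fold lower (1.84 to 3.2), from 2.09 to 0.81, and stood at 0.81 after noise only and 2.02 in the baseline.

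In the matrix list (median 0.08, and below 0 as a mean over probes), Timp3, an inhibitor of matrix proteases, was 2-fold higher, from 3.97 to 4.97, with further probes at 0.15 and 1.21. The complement receptor gene C3ar1 was 2.64-fold higher at a low level, from -4.26 to -2.86. Adipocyte genes had a median of 0.23, and 3 of 13 were at least 2-fold higher, beside 2.61% of all genes. They were Scd1 (2.51-fold), Cidec (2.43-fold) and Plin1 (2.16-fold). Sost, the osteocyte inhibitor of bone formation, was the 1 of 15 bone-forming genes at least 2-fold apart, beside 6.8% of all genes. Sost was 2.34-fold lower. Heat shock and unfolded protein response genes, which report protein damage, had medians of -0.04 and -0.18, or 0.51 and 0.37 with spike-in scaling and both above 0 after normexp, with 0 of 16 and 0 of 18 at least 2-fold apart.

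Some of the highest differences came from probes that tracked each other. The probes named Gcm1, Dcc and Rhox8 were 3.89-fold, 3.77-fold and 3.69-fold higher at 24 h. Levels of any 2 of the 3 differed by at most 0.12 on every one of the 6 arrays. Per the file headers they lie on mm9 at chr7:123731567-123731626, chr7:68417162-68417221 and chrX:35231462-35231521. Whether each probe reports the gene it is named for was not tested. Pnma2 and Pinx1, 3.93-fold and 3.37-fold higher, likewise stayed within 0.15 of each other. Further probes differed by 0.50 to 2.18 for Gcm1 and by 0.83 for Pnma2. Pou4f1, a transcription factor of sensory neurons, was 3.6-fold higher (2.72 to 4.74), but its 2 further probes both differed by 0.72, and the T-box gene Tbx22 was 3.38-fold higher. Well above background at 24 h and not at 12 h were 395 genes, 339 of them at least 2-fold by their bound, and 2747 were so at 12 h and not at 24 h, 259 of them at least 2-fold.

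The same 12 h interval with dexamethasone, on the same 2 slides but on other arrays, had 748 genes at least 2-fold higher (3.23%) and 885 lower (3.82%) of 23188 measured. Over the 22497 genes measured on all 4 arrays, the differences with saline and with dexamethasone had a Pearson correlation of 0.677 across genes, which are not independent replicates, and the pairs share their slides. Of 537 genes at least 2-fold higher with saline, 205 (38.2%) were also at least 2-fold higher with dexamethasone, and they were 30.4% of the 675 higher with dexamethasone. Of 905 genes lower with saline, 412 (45.5%) were lower with dexamethasone, which was 49.9% of the 825 lower there. At least 2-fold in opposite directions were 6 of the 537 and 12 of the 905. For 62.4% of the 962 genes at least 2-fold lower with saline both 12 h arrays lay above all 4 others, and for 64.1% of the 599 higher genes both lay below, a share that the choice of these genes raises.

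**Figure D4:**
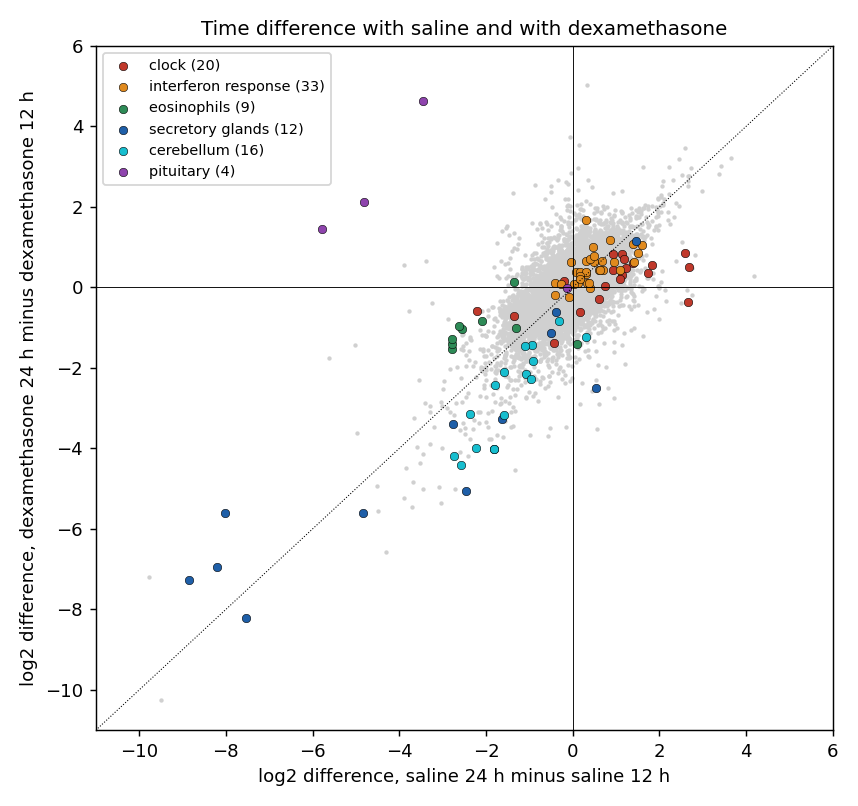
Log2 difference between 24 h and 12 h with saline (horizontal axis) and with dexamethasone (vertical axis) for 22497 genes measured on all 4 arrays (grey), with the members of 6 lists coloured and the dotted line at equal differences. The gland genes furthest left lie far down on both axes, Per2, Dbp and Ciart lie far right at dexamethasone values between -0.36 and 0.86, and 3 pituitary hormone genes lie in the opposite quadrant.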

How the data were processed

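The authors deposited, for each array, linear intensity values, which they extracted with Agilent Feature Extraction, version 10.10.1.1 per the submitters' processing notes, with background subtracted per the file headers. Probe positions are on mm9 per the file headers. The deposited series matrix holds log2 values. For 100% of probes they differed from log2 of the scanner's processed signal by 1 constant per array, within 0.0015. Column medians were -2.937 (saline 24 h) and -2.86 (saline 12 h), so that no scale, centring or direction stays unknown for them.

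Outlier and control spots were left out, spots of a probe were averaged, and log2 of the processed signal minus the array's 75th percentile was taken. Each array had 59305 non-control spots and 0 saturated ones, and precision is limited by the number of arrays. A RefSeq accession named 32994 of 56605 probes (names from GRCm38.p6, 1535 changed), and 23611 kept the file's name. A gene was represented by its brightest probe over the 6 arrays, and intervals are 1.96 times the software's error. A gene above background on 1 array is given as at least N-fold, its level against the higher of the dim array's lowest signal well above background and the gene's own signal there, leaving out spot error.

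The 2 groups were set side by side by differences, with counts past 2-fold and list medians, since 1 array per group allows no test. Genes were named by rule, taking the 12 highest and the 12 lowest of those measured and of at least median signal, without clone names, all clock genes, up to 6 members of each of 41 lists by size, and Atf3, Ccl2, Egr1, Fos, Il6 and Junb. The members and lists were chosen with earlier results of these data known. Genes named beyond that rule, those well above background on 1 array, those not above background and those found by a promoter match, were chosen after their values were seen. Counting was tested on simulated data. The alternatives were quantile normalization, normexp (offset 50) plus quantile normalization (limma 3.58.1 in R 4.3.3), a percentile over detected probes alone, the matrix values, no filter on dim probes, brighter genes, the mean over probes, spike-in and median scaling, thresholds of 1.5-fold and 3-fold, and leaving out genes of other cells. Python 3.11.15, pandas 2.3.3, numpy 2.4.6 and matplotlib 3.10.9 were used. Slide could not be fitted as a block, because it parts the 2 arrays. Some genes that the naming rule covers are not reported here.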

Additional observations from a re-analysis of the deposited data

Results flagged for a closer look

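7 named genes were at least 2-fold apart between 24 h and 12 h with saline and at least 2-fold apart in the opposite direction with dexamethasone. The difference between the treatments was not tested, since each value rests on 1 array. Prl, made by pituitary lactotrophs, differed by -5.77 with saline and by 1.46 with dexamethasone. Gh differed by -4.80 and 2.12, and Pomc, the precursor of corticotropin, by -3.45 and 4.62. For these 3 hormone genes saline 24 h was the lowest of the 6 arrays and dexamethasone 24 h the highest. Vpreb1 differed by -1.53 and 1.49, Igll1 by -1.36 and 2.33, and Dntt by -1.27 and 1.07, all 3 of B cell precursors, with noise only the lowest array for each. Tnfsf11 was the one gene of the 7 that was higher at 24 h with saline, by 1.42, and lower with dexamethasone, by -1.01.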

How the results depend on the processing

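The number of genes at least 2-fold apart (1561, with 599 higher and 962 lower) was 821 (317 and 504) after normexp with quantile normalization, 4801 (1528 and 3273) with dim probes kept, 500 (157 and 343) among brighter genes, 3842 (3554 and 288) with spike-in scaling, 5326 (2339 and 2987) at 1.5-fold and 398 (141 and 257) at 3-fold. Spike-in scaling turned the split towards higher genes because it adds the same amount to every difference. It gave list medians of 1.68 for the clock, 0.91 for interferon response, 1.17 for hair cells, 1.18 for stria vascularis, -0.43 for neutrophils, -2.0 for eosinophils, -0.36 for skeletal muscle, -2.15 for secretory glands, -2.75 for stratified epithelium and -1.05 for cerebellum, and turned the sign of 16 of the 41 medians, among them, of those over 0.40 in size, antigen presentation to 0.11, T and NK cells to 0.14 and the acute-phase list to 0.11. The eosinophil median was -2.10 and the gland median -2.29 after normexp, and the gland median was -1.76 without the filter and -4.83 among brighter genes. The acute-phase median was 0.058 among brighter genes, the catecholamine neuron median -0.045 without the filter, and the Loxhd1 difference -0.021 as a mean over probes. For these the cause was not tested. Of 393 list medians under an alternative, 342 moved by no more than the median spot error of 0.40 and 51 moved further, and 26 of the 393 had the other sign, all in lists whose median was at most 0.44 in size. The mean over probes, the deposited matrix, median scaling, quantile normalization and a percentile taken over detected probes alone moved 0 of 41 medians beyond it. Probes near background limit what can be said of dim genes. No paired analysis was possible because each group has 1 array.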

Other observations

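Further lists had few members at least 2-fold apart between the saline arrays. Choroid plexus genes had a median difference of 0.44, with 1 of 8 at least 2-fold higher at 24 h, the potassium channel gene Kcnj13 at 2.71-fold (2.05 to 3.57). Sterol and fatty acid synthesis genes had a median of 0.32 and 0 of 15 at least 2-fold apart, while their median was 0.79 with dexamethasone. Osteoclast genes had a median of -0.32, or 0.22 with spike-in scaling, with 0 of 11 at least 2-fold apart. Muscle atrophy genes had a median of -0.07, or 0.48 with spike-in scaling, with 0 of 12 at least 2-fold apart, and the ubiquitin ligase gene Trim63 (MuRF1) had a difference of -0.99. Catecholamine neuron genes were measured for 6 of 10, with a median of 0.41, and the other 4 were well above background at 12 h alone. Over all 10 the median was -0.045, so the direction turned without the filter on dim probes, and with dexamethasone it was 2.43 over 10 measured genes.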
